A study of Mus musculus with 6 samples.

Results

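Cfap300, Sphkap, Tafa1 and Cnpy1 are 4 genes outside the receptor families whose signal was lower in the vomeronasal organ (VNO) of AP-2e null mice. They are the members described here, 4 of 22180 genes measured, and each is read by 1 probe set of the 41345 on the array. The members were chosen by their lower signal and adjusted p in this very contrast, so their differences between genotypes are a description and carry no test of their own. Mice sense pheromones with the VNO, a paired tube at the base of the nasal septum. RNA of VNOs of mice at postnatal day 17 was measured on 6 arrays, with 3 wild-type samples and 3 from AP-2e null mice, which lack the transcription factor encoded by Tfap2e. All values are log2 signals, so a difference of -1 is a halving of the signal. The sources used here do not give how the null allele was made, nor the strain, the sex or the number of mice per sample.

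VNO sensory neurons belong to an apical class with V1R receptors and a basal class with V2R receptors, and AP-2e is known from the basal class. The neurons end in microvilli, while motile cilia are carried by cells of the non-sensory epithelium of the same organ. The members come from unrelated families. Cfap300 helps to assemble the dynein arms that drive motile cilia. Sphkap is an A-kinase anchor protein (AKAP), which holds protein kinase A in place inside the cell. Tafa1 is a small secreted, chemokine-like protein of the nervous system. Cnpy1 belongs to the canopy family of proteins of the endoplasmic reticulum and has been tied to fibroblast growth factor (FGF) receptor signalling in the developing fish brain.

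The windows of 250 bases before the annotated starts are shown because the data concern the loss of a transcription factor. Matches to 3 motifs are in capitals. The sequences are from RefSeq, build GRCm38.p6, in which all 4 members were found, and are written 5′ to 3′ in the direction of the gene. The motifs were the AP-2 consensus with a spacer of 3 bases, GCCNNNGGC, the same with a spacer of 4 bases, GCCNNNNGGC, and the RFX half-site GTTGCC. Both strands were searched. The AP-2 motifs read the same on both strands, and a stretch can match only 1 of these 2 spacers at the same first base. Cfap300 lies on the minus strand, and its window is chr9:8042876-8043125. Tafa1 lies on the plus strand, with the window chr6:96112904-96113153. Cnpy1 lies on the minus strand and has 2 annotated starts, of which the one inside the gene has the window chr5:28210169-28210418.
Cfap300: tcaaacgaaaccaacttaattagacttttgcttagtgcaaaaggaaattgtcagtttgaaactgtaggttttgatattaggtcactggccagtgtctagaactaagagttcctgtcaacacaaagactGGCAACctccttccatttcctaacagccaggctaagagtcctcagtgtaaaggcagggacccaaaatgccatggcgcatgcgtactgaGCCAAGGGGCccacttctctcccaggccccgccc
Tafa1: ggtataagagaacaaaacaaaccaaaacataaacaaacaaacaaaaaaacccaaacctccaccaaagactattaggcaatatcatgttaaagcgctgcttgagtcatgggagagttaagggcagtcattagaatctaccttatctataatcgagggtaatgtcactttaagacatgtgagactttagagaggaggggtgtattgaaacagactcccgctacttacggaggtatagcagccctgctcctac
Cnpy1, inner start: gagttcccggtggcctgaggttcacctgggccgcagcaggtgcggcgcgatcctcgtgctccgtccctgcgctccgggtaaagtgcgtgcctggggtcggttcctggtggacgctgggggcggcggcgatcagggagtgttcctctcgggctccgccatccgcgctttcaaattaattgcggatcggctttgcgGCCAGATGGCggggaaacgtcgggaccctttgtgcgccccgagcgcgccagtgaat

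The Cfap300 window held 1 match to the AP-2 motif with a spacer of 4 bases, GCCAAGGGGC, from 34 to 25 bases before the start, and 1 RFX half-site on the opposite strand, GGCAAC, from 122 to 117 bases before it. RFX factors are known regulators of cilium genes. The inner Cnpy1 window held 1 match to the same AP-2 motif, GCCAGATGGC, from 56 to 47 bases before the start. Tafa1, the outer Cnpy1 start and Sphkap, whose window lies partly inside the annotated gene and is not shown, held none of these letters. GCCNNNNGGC was found in 12.3% of all 32851 windows of this length, GCCNNNGGC in 13.7% and GTTGCC in 3425 of the windows. Among the 117 windows of V2R genes the shares were 2.56%, 7.69% and 0.855%. The base content of the windows differed as well. The GC content was 48.0% for Cfap300, 57.6% for Sphkap, 40.8% for Tafa1 and 53.2% and 67.2% for the outer and inner Cnpy1 starts, beside a median of 52.4% over all windows and 38.8% over V2R windows. The inner Cnpy1 window held 29 CpG pairs, and those of the other starts of the members held 4 or 5. A match is a run of letters and not a measured binding site, and the absence of one says nothing about the factor.

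The arrays were alike in their overall level, with medians between 4.997 and 5.079, and the lowest mean correlation of an array with the others across probe sets was 0.973, for wild-type replicate 3. Tfap2e was between 6.46 and 6.92 on the wild-type arrays and between 5.97 and 6.09 on the AP-2e null arrays, and the sources used here do not give where its probes lie in the allele. The neuronal identity of the tissue was visible in Omp, the marker of mature sensory neurons, between 9.46 and 10.48, and in Trpc2, their transduction channel, between 6.75 and 7.08. Xist, which is made in female cells, read 3.55 to 3.58 on 5 arrays but 10.64 on the first AP-2e null array, and it was picked out after its values were seen. In limma's fit over all genes, 48 genes were lower past a Benjamini-Hochberg adjusted p of 0.05, which is 0.216% of the 22180 tested, and 2 were higher, or 0.00902%, which together is 0.225%. At an unadjusted p under 0.05, 2.49% of the genes were lower and 1.9% higher, 4.4% in all. Every null array lay below every wild-type array in 3.64% of the genes, and above in 3.42%. The members are the 4 of those 48 that are neither receptor genes or pseudogenes nor H2-M genes. The 2 higher genes were odorant receptor genes. For every list of other genes below, 0 past the threshold was therefore fixed by the choice of the members. In RNA of a whole organ, fewer cells of a type and less RNA per cell cannot be told apart.

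Cfap300 had log2 signals of 10.18, 10.01 and 10.05 in wild-type replicates 1, 2 and 3, and of 9.09, 8.98 and 8.91 in AP-2e null replicates 1, 2 and 3. The values of each genotype lay close together, and the lowest wild-type array stood 0.92 above the highest null array. Averaged over its arrays, wild-type gave 10.08 ± 0.09 and null 8.99 ± 0.09 (SD, n = 3 arrays per genotype), and null minus wild-type was -1.09 (SE 0.08), so that null VNOs had 47.1% of the wild-type signal. The spread of Cfap300 within genotypes, a pooled SD of 0.088, was the smallest of the 4 members, and 27.3% of all genes had a smaller one.

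Sphkap had log2 signals of 7.18, 7.34 and 6.95 in wild-type replicates 1, 2 and 3, and of 5.66, 5.80 and 5.74 in AP-2e null replicates 1, 2 and 3. Its wild-type arrays were spread more widely than its null arrays, and the genotypes were 1.14 apart at their nearest arrays. The wild-type mean was 7.16 ± 0.20 and null 5.73 ± 0.07 (SD, n = 3 arrays per genotype), and null minus wild-type was -1.42 (SE 0.11), the largest difference of the 4. Its null signal was 37.3% of the wild-type signal.

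Tafa1 had log2 signals of 6.64, 6.96 and 6.67 in wild-type replicates 1, 2 and 3, and of 5.63, 5.47 and 5.67 in AP-2e null replicates 1, 2 and 3. Wild-type replicate 2 was the highest array, as it was for Sphkap, and the nearest arrays of the genotypes were 0.97 apart. On average the wild-type signal was 6.76 ± 0.18 and null 5.59 ± 0.11 (SD, n = 3 arrays per genotype), and null minus wild-type was -1.17 (SE 0.11), which left 44.5% of the wild-type signal.

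Cnpy1 had log2 signals of 8.70, 8.47 and 8.73 in wild-type replicates 1, 2 and 3, and of 7.78, 7.75 and 7.65 in AP-2e null replicates 1, 2 and 3. Wild-type replicate 2 was here the lowest of its group, as it was for Cfap300, and the genotypes were 0.69 apart at their nearest arrays. In the mean, wild-type stood at 8.63 ± 0.14 and null 7.73 ± 0.07 (SD, n = 3 arrays per genotype), and null minus wild-type was -0.91 (SE 0.09), the smallest difference of the 4, with 53.4% of the wild-type signal left. On all 6 arrays the members stood above 3.62, the lower quartile of the probe sets.

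**Figure D1:**
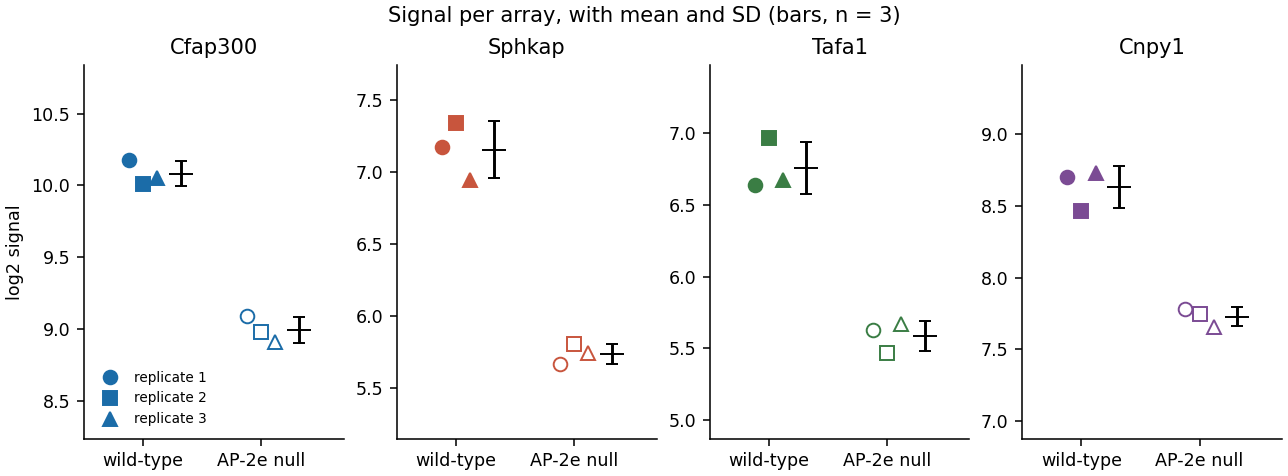
Log2 signal of Cfap300, Sphkap, Tafa1 and Cnpy1 on each array, wild-type (filled) and AP-2e null (open), with symbols for replicates 1 to 3 and bars for the mean and SD (n = 3); each panel spans the same number of log2 units. In every panel the null arrays lie below all wild-type arrays, with gaps between 0.69 for Cnpy1 and 1.14 for Sphkap.

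The members lay inside the threshold that chose them, Tafa1 and Cnpy1 nearest to it. Their adjusted p-values in limma were 0.00996 for Cfap300, 0.0155 for Sphkap, 0.0330 for Tafa1 and 0.0386 for Cnpy1, given here only to place them. The nearest lower genes outside it that are neither receptor nor H2-M genes, with those known only by a predicted or clone name left out, were Grin3a, a subunit of NMDA-type glutamate receptors, at -0.78 (SE 0.09, adjusted p = 0.0819 in limma), and Calr4, a calreticulin-like chaperone of basal neurons, at -1.10 (SE 0.15, adjusted p = 0.141). Calr4 passed in 1 of the other settings, without wild-type replicate 3, at -0.93 and an adjusted p of 0.0384. When each of the 6 arrays was left out in turn, Cfap300 passed once, without AP-2e null replicate 1 (-1.13), and Sphkap once, without wild-type replicate 3 (-1.53). Neither Tafa1 nor Cnpy1 passed in any of these fits. Without AP-2e null replicate 1, the array with high Xist signal, the differences were -1.39 for Sphkap, -1.19 for Tafa1 and -0.93 for Cnpy1. Over all 15 alternatives the differences lay between -1.13 and -1.04 for Cfap300, -1.53 and -1.33 for Sphkap, -1.23 and -1.07 for Tafa1 and -0.99 and -0.86 for Cnpy1.

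At or below the difference of Cnpy1 there were 34 genes that are neither receptor nor H2-M genes, the 4 members and 30 that did not pass. Their pooled SD within genotypes had a median of 1.18 over those 30 and was 0.088 to 0.15 for the members, beside a median of 0.135 over all genes. At a given difference a gene passes only with a small spread, so the rule that chose the members fixed this contrast. In 8 of the 30 every null array lay below every wild-type array, a pattern that 3.64% of all genes showed.

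The members sat inside the range of the V2R genes, the receptors of the basal neurons, and toward its milder end. Of 109 measured V2R genes, 42 fell past the threshold (38.5%, beside 0.216% of all genes), and their differences had a median of -1.78 and reached -5.77 for Vmn2r69. A smaller fall than that of Sphkap, or a difference above it, was found for 45 V2R genes, and for Tafa1, Cfap300 and Cnpy1 the numbers were 41, 36 and 28. Low probe signals compress log2 differences, and many V2R genes are close relatives that may share signal, so this order is a description of the probe sets. Of the 10 H2-M genes measured, MHC class Ib genes of which several are made by basal neurons, 1 fell past the threshold, 9 had an unadjusted p under 0.05, and their median was -0.80. In 9 of the 10 every null array lay below every wild-type array. V1R genes, the receptors of the apical neurons, had a median of 0.22 with 0 of 176 past the threshold in limma. An unadjusted p under 0.05 was found for 27 of them, beside 4.4% of all genes. Every null array lay above every wild-type array in 32 V1R genes and below in 1, beside 3.42% and 3.64% of all genes. The V1R median was 0.036 without wild-type replicate 2 and 0.15 to 0.32 without each other array in turn. The median of 1088 odorant receptor genes was 0.01 with 2 higher past the threshold. Over all genes the median was -0.0005.

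**Figure D2:**
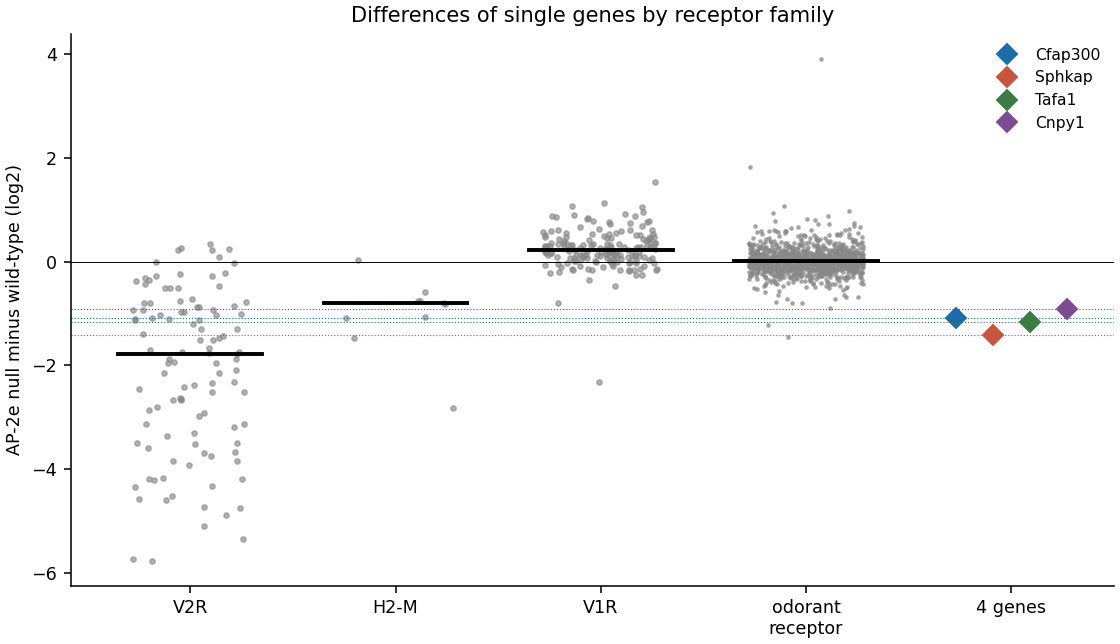
AP-2e null minus wild-type difference (log2) of every measured V2R, H2-M, V1R and odorant receptor gene (dots, bar at the median) and of the 4 members (diamonds, dotted lines across). The members lie between -1.42 and -0.91, above the V2R median of -1.78 and below the medians of the other families.

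The profile of each member over the 6 arrays was compared with those of genes whose range over the arrays was at least 0.5, 7691 genes, by Pearson's r. The arrays fall into 2 groups by genotype, so a high r mostly restates a gap between genotypes, and no p is given. For Cfap300 the most alike were Vmn2r67 (r = 0.9987), Vmn2r5 (0.9987) and Vmn2r7 (0.9983). Vmn2r5 and Vmn2r7 belong to V2R family C, the co-receptors of basal neurons, and fell by 2.97 and 1.75 on the log2 scale (adjusted p = 0.00111 and 0.00465 in limma). For Sphkap they were Vmn2r86 (0.9952), Vmn2r66 (0.9912) and Vmn2r69 (0.9859), and for Cnpy1 Vmn2r76 (0.9935), Vmn2r65 (0.9900) and Vmn2r7 (0.9900). For Tafa1 they were H2-M1 (0.9953), Vmn2r87 (0.9917) and Vmn2r118 (0.9893). H2-M1 was, like Tafa1 and Sphkap, highest on wild-type replicate 2, with log2 signals of 7.61, 8.59 and 8.02 on the wild-type arrays and 5.43, 5.08 and 5.24 on the null arrays.

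Without receptor and H2-M genes, members headed each other's lists. They are the genes outside those families chosen for a clear gap between genotypes, so high places in each other's lists follow from that choice. For Cfap300 the most alike were Cnpy1 (r = 0.9891), Grin3a (0.9718) and Sphkap (0.9715), and for Cnpy1 they were Cfap300, Apmap (0.9853) and Grin3a (0.9837). For Sphkap they were Tafa1 (0.9819), Elmod1 (0.9740) and Cfap300, and for Tafa1 they were Sphkap, Tdpoz1 (0.9686) and Tmc5 (0.9614). The lowest r between members was that of Tafa1 and Cnpy1, 0.925, and wild-type replicate 2 was the highest array for the first and the lowest wild-type array for the second. Apmap differed by -0.69, Elmod1 by -0.55, Tdpoz1 by -0.68 and Tmc5 by -0.62, and none of these 4 passed (adjusted p between 0.318 and 0.391 in limma). Tdpoz1 lay below the lower quartile of the probe sets in both genotypes.

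Non-receptor markers of the basal class gave values in the same direction as the members for 4 of 5 genes. None of the 5 passed in limma, and 4 had an unadjusted p under 0.05, beside 4.4% of all genes. In the same 4 every null array lay below every wild-type array, beside 3.64% of all genes. Gnao1, the G protein subunit of basal neurons, had log2 signals of 10.45, 10.38 and 10.77 on the wild-type arrays and 9.79, 9.88 and 9.90 on the null arrays, a difference of -0.68 (SE 0.11, adjusted p = 0.331 in limma). Beside Calr4, the adhesion gene Kirrel3 was at -0.50, the guidance receptor Robo2 at -0.49 and Gng8, which the list of immature neurons also holds, at 0.06. The list mean per array ranged from 9.47 to 9.70 in wild-type and from 8.95 to 9.05 in null VNOs, so it moved with the members, and its part in their differences was not tested. The 7 apical markers had a median of 0.08, between -0.35 for Kirrel2 and 0.36 for Gng2, and per-array means of 9.08 to 9.23 and 9.14 to 9.22. The 9 genes listed for mature sensory neurons had a median of -0.04, among them Omp at -0.41 and Trpc2 at -0.04. Their per-array means were 9.13 to 9.30 in wild-type and 9.06 to 9.28 in null VNOs. Stoml3 of this list read 8.73, 10.51 and 8.73 on the wild-type arrays and 8.43, 10.18 and 10.25 on the null arrays. In the lists of apical and mature neuron genes 0 passed in limma, and 3 and 2 had an unadjusted p under 0.05, beside 4.4% of all genes. The apical genes among these were Kirrel2, which was lower, and Gng2 and Meis2 (0.26), which were higher. The mature neuron genes among them were Ano2 at -0.40 and Rtp1 at 0.44. Every null array lay below every wild-type array in 1 apical and 3 mature neuron genes, beside 3.64% of all genes. The reverse held in 2 and 1, beside 3.42% of all genes. Another 9 marker lists, of 72 genes in all, covered immature neurons and progenitors, sustentacular cells, ensheathing glia, endothelium, smooth muscle and pericytes, macrophages, neutrophils, skeletal muscle and cartilage. Their medians lay between -0.33 for skeletal muscle and 0.51 for neutrophils. Of their genes 0 passed in limma and 1 had an unadjusted p under 0.05, beside 4.4% of all genes. The skeletal muscle median was -0.11 without wild-type replicate 2, and the neutrophil median ranged from 0.036 (wild-type replicate 3) to 0.77 (wild-type replicate 1) with an array left out. The mean of the cartilage markers was 8.55 on AP-2e null replicate 2 and 6.38 to 6.8 on the other arrays, and their median of 0.45 became -0.13 without that array and 0.86 without AP-2e null replicate 1. The members were at -1.08 for Cfap300, -1.46 for Sphkap, -1.11 for Tafa1 and -0.91 for Cnpy1 without AP-2e null replicate 2.

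Cfap300 was set beside the other genes of motile cilia. Of 81 such genes in 4 lists, 77 had differences below 0, beside 11214 of all 22180 genes, and their median was -0.24. By the choice of the members 0 passed in limma, and 6 had an unadjusted p under 0.05, beside 4.4% of all genes. In 7 of the 81 every null array lay below every wild-type array, beside 3.64% of all genes. The lowest of them was Dnah7a, a dynein heavy chain, at -0.48, beside -1.09 for Cfap300.

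Among the 16 measured dynein arm assembly factors, the proteins that work with Cfap300, 13 were below 0, with a median of -0.14. The 4 with the smallest p were Wdr92, also known as Dnaaf10, at -0.25, Cfap298 at -0.26, Pih1d2 at -0.27 and Dnaaf4 at -0.25. Of the 19 dynein arm subunits and docking proteins, all were below 0, with a median of -0.26 and with Dnah10 at -0.38, Dnah6 at -0.35 and Dnah9 at -0.35 after Dnah7a. The 27 other CFAP genes were all below 0 as well, with a median of -0.25, and those with the smallest p were Cfap36 at -0.16, Cfap53 at -0.37, Cfap69 at -0.26 and Cfap47 at -0.37. Of the 19 markers of multiciliated cells 18 were below 0, with a median of -0.24. Foxj1, the regulator of motile cilia, was at -0.40, Hydin at -0.28, Rsph9 at -0.38 and Rfx3, an RFX factor, at -0.11, while Gmnc, which starts multiciliated cell fate, was at 0.29.

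Per array, the mean of the 81 cilium genes was 7.41, 7.40 and 6.89 in wild-type replicates 1, 2 and 3 and 6.92, 7.08 and 7.09 in null replicates 1, 2 and 3. The genotypes overlapped, and wild-type replicate 3 was the lowest of all 6 arrays. Cfap300 stood at 10.05 on that array and at 10.18 and 10.01 on the other wild-type arrays. A small spread within genotypes was part of what chose Cfap300. This contrast with the cilium genes and the subtraction below are therefore descriptions. Cfap300 minus the cilium mean was 2.85 ± 0.28 in wild-type and 1.97 ± 0.18 in null VNOs (SD, n = 3 each), a difference of -0.88 beside -1.09 for Cfap300 and -0.21 for the cilium mean. The part of the cilium genes in the difference of Cfap300 was not tested. The mean of the multiciliated markers alone ranged from 7.65 to 8.18 and from 7.61 to 7.90. The medians of the cilium lists depended on wild-type replicate 3: without it they were -0.29 for assembly factors, -0.44 for dynein arm subunits, -0.42 for other CFAP genes and -0.42 for multiciliated cells. Without wild-type replicate 1 they were -0.06, -0.09, -0.12 and -0.13, and without wild-type replicate 2 they were -0.06, -0.14, -0.15 and -0.16.

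**Figure D3:**
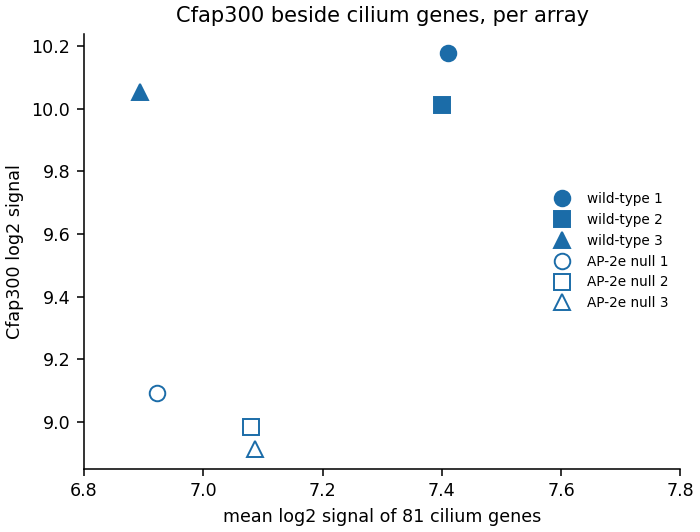
Cfap300 log2 signal against the mean log2 signal of 81 cilium genes, 1 point per array, wild-type filled and AP-2e null open. Wild-type replicate 3, at 6.89, lies below the null arrays on the cilium mean but with the wild-type arrays on Cfap300, at 10.05. A small spread within genotypes was part of what chose Cfap300.

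Sphkap was set beside the protein kinase A system. Of the 8 measured subunits and inhibitors of the kinase 0 passed in limma. An unadjusted p under 0.05 was found for 1, the inhibitor Pkia at -0.28, beside 4.4% of all genes. The next were the inhibitor Pkib at -0.18, the catalytic subunit Prkacb at 0.16 and the regulatory subunit Prkar2b at -0.13, and the median was -0.07. The 23 other anchor proteins had a median of 0.00 and 0 past the threshold or at an unadjusted p under 0.05 in limma. The 4 with the smallest p among them were Akap10 at 0.16, Cmya5 at -0.30, the dendrite protein Map2 at -0.27 and Akap14 at -0.33. Of the partners of Sphkap, its binding partner sphingosine kinase, Sphk1, was at 0.03, Sphk2 at 0.03, the gap junction gene Gja1 at 0.10 and Vapb, which ties membranes to the endoplasmic reticulum, at 0.08, with 0 of 6 past the threshold or at an unadjusted p under 0.05. No gene of these 3 lists had a difference below -0.33, beside -1.42 for Sphkap.

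The other measured TAFA genes lay nearer to 0 than Tafa1 at -1.17, as nearly all genes did. Tafa2 was at -0.09 (SE 0.15), Tafa3 at -0.02 (SE 0.05), Tafa4 at -0.07 (SE 0.12) and Tafa5 at 0.12 (SE 0.12), and 0 of the 4 passed in limma or had an unadjusted p under 0.05. Their log2 signals ranged over all 6 arrays from 3.59 to 4.15 for Tafa2, 4.47 to 4.54 for Tafa3, 4.40 to 4.85 for Tafa4 and 5.30 to 5.76 for Tafa5. The genotypes overlapped in each of them. Tafa2, Tafa3 and Tafa4 lay below the median of the probe sets on every array, and low signals leave little room for a fall. Among the reported receptors and partners of TAFA proteins, Gpr1, also known as Cmklr2, was at 0.16, the neurexins Nrxn2 and Nrxn3 at -0.28 and -0.02 and the sphingosine phosphate receptor S1pr2 at -0.01, again with 0 of 4 past the threshold or at an unadjusted p under 0.05. The Gpr1 probe set lay between 2.28 and 2.68, below the lower quartile of the probe sets.

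The other canopy genes also lay nearer to 0 than Cnpy1, as nearly all genes did. Cnpy2 was at 0.01 (SE 0.05), Cnpy3 at 0.15 (SE 0.08) and Cnpy4 at 0.08 (SE 0.17), with 0 of 3 past the threshold or at an unadjusted p under 0.05 in limma. Cnpy2 ranged from 9.81 to 9.87 over all arrays, and Cnpy3 and Cnpy4 from 7.43 to 7.72 and from 6.61 to 7.18, and the genotypes overlapped in all 3. The 23 measured genes of FGF signalling had a median of 0.00, with 0 past the threshold in limma. An unadjusted p under 0.05 was found for 1, the transcription factor Etv1 at 0.26, beside 4.4% of all genes. The others with the smallest p were the feedback inhibitors Spry1 at 0.20, Spry4 at 0.16 and Dusp6 at 0.28. The lowest difference of the FGF list was -0.17, beside -0.91 for Cnpy1.

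**Figure D4:**
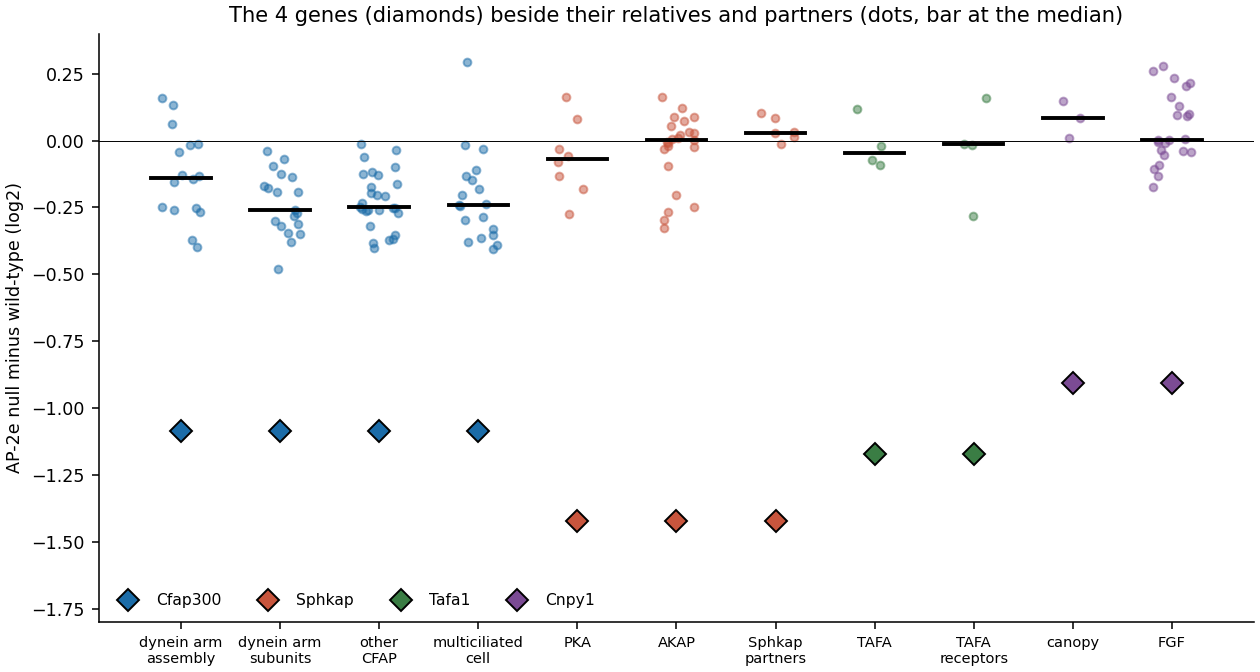
AP-2e null minus wild-type difference (log2) of each gene in 11 lists of relatives and partners (dots, bar at the median), with the member they belong to as a diamond in the same column. The cilium lists have medians between -0.26 and -0.14, the other lists between -0.07 and 0.08, and all dots lie above the diamonds. The members were chosen for their falls, so dots of almost any list would lie above them.

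The nearest measured protein-coding genes on either side of each member, in the gene order of GRCm38.p6, had smaller differences, as nearly all genes did. Beside Cfap300, Yap1 was at 0.04, Birc3 at 0.16, Cep126, a gene of the centrosome and cilium base, at -0.27 and Trpc6 at -0.07. Sphkap lies between Daw1, a dynein arm assembly gene, at 0.13, and Pid1 at 0.22, and the next genes were Ccl20 at -0.04 and Dner at 0.27. Tafa1 has its relative Tafa4 as a neighbour, with Eogt at -0.04 beyond it and Suclg2 at 0.11 and Kbtbd8 at -0.08 on the other side. Cnpy1 lies between En2 at 0.11 and Rbm33 at -0.07, followed by Insig1 at 0.10 and Shh at 0.02. Over all arrays, En2 ranged from 3.60 to 4.20, Shh from 3.64 to 3.86 and Daw1 from 3.77 to 4.45. These signals were near the lower quartile of the probe sets, 3.62, where a fall would show little. None of the 16 neighbours passed in limma, which the choice of the members had fixed, and none had an unadjusted p under 0.05.

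**Figure D5:**
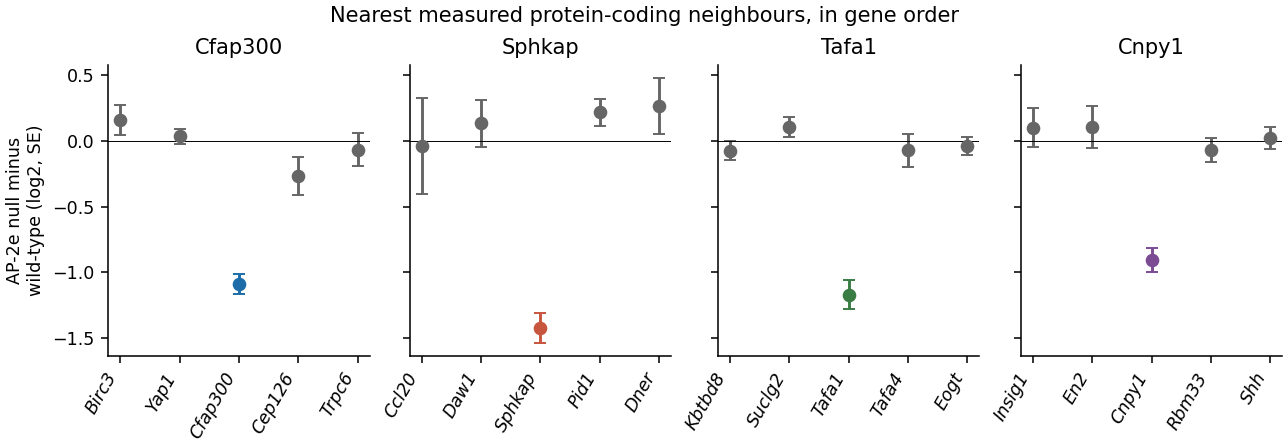
AP-2e null minus wild-type difference (log2, bars for the SE of the fit, n = 3 arrays per genotype) of each member (coloured) and of 2 measured protein-coding genes on either side (grey), in gene order. The neighbours lie between -0.27 and 0.27, and the members, which were chosen for their falls, between -1.42 and -0.91.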

How the data were processed

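Per the labels, RNA of 3 wild-type and 3 AP-2e null VNOs was hybridised to 1 Affymetrix whole-transcript array each. Per the submitters' processing notes, the deposited log2 signals came from RMA and the Transcriptome Analysis Console, with versions and genome build not given in the sources used here. RMA equalises the arrays, which can shrink broad shifts. The platform annotation named 1 gene for 23521 probe sets, and the probe set with the highest mean was kept for each of 22180 genes, with no filter on low signals. The genotypes were set against each other by limma 3.58.1 under R 4.3.3 (lmFit, eBayes, 2-sided), with Benjamini-Hochberg adjustment over all genes. With 3 arrays per genotype, p-values reflect spread between these samples, and the number of arrays limits the precision. The members and lists were chosen with earlier results of these data known. Alternatives changed the moderation, the probe set summary, a filter on dim genes, the normalization, array weights and the replicate block, or left out 1 array. The text names members, the genes of each list with the smallest p (all of the TAFA, canopy and basal lists), neighbours, the 3 most alike profiles and the genes next to the threshold. Tested on data simulated from these arrays (22180 genes, null against wild-type), 88 of 100 changes of 1 log2 unit and 99 of 100 of 2 were recovered, with 4 false calls. Plots used matplotlib 3.10.9 in Python 3.11.15.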

Additional observations from a re-analysis of the deposited data

How the results depend on the processing

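The differences of Cfap300, Sphkap, Tafa1 and Cnpy1 kept their sign and moved by less than the SD between replicates in all 15 alternatives. Changes of the moderation, the probe set summary, the dim gene filter and the replicate block could not move them, since each member has 1 probe set and the design is balanced. Cfap300 and Sphkap passed the threshold in 9 of the 15 alternatives, and Tafa1 and Cnpy1 in 8. The precision is limited by 3 arrays per genotype. Genes lower past the threshold numbered 48, and with an array left out 17 (wild-type replicate 2) to 32 (wild-type replicate 3), and V2R genes among them between 16 and 26, against 42. Genes higher numbered 0 to 1, as did odorant receptor genes higher and H2-M genes lower. Medians ranged from -1.88 to -1.54 for V2R genes, 0.036 to 0.32 for V1R genes, -0.44 to -0.088 for dynein arm subunits, -0.42 to -0.13 for multiciliated markers, 0.0034 to 0.20 for the canopy family and -0.0041 to 0.079 for Sphkap partners. With the replicate block 22 genes were lower, 21 of them V2R genes, and 0 were higher, with 0 H2-M and 0 odorant receptor genes, and the adjusted p was 0.0918 for Cfap300, 0.112 for Sphkap, 0.391 for Tafa1 and 0.326 for Cnpy1. Same-numbered arrays deviated together with r = 0.040, 0.110 and 0.019, and not every array correlated best with its own number, so the numbers were not taken as pairs. Genes higher numbered 1 with averaged probe sets, with every probe set by itself and with array weights, and 4 with median centring, repeated quantile normalization and cyclic loess. Odorant receptor genes higher numbered 1 with trend and robust moderation, averaged probe sets, every probe set by itself and without the dimmest 30% of genes, and 0 with array weights. V1R genes higher numbered 1 with trend and robust moderation, without the dimmest genes, and with the 3 normalizations. The H2-M median was -0.94 without the dimmest genes, and that of TAFA receptors -0.049 with median centring.

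Values near 0 changed sign in places. With median centring Sphk1 was -0.0090, Sphk2 -0.0028, Cnpy2 -0.024 and Shh -0.012, with repeated quantile normalization Sphk1 was -0.013, and with array weights Cnpy4 was -0.013, Shh -0.021 and Gng8 -0.044. With single arrays left out the ranges were -0.46 to 0.22 for Ccl20, -0.0061 to 0.025 for Cnpy2, -0.049 to 0.20 for Cnpy4, -0.053 to 0.25 for Daw1, -0.037 to 0.23 for En2, -0.082 to 0.011 for Eogt, -0.099 to 0.16 for Gng8, -0.037 to 0.25 for Insig1, -0.037 to 0.014 for Nrxn3, -0.16 to 0.0007 for Rbm33, -0.037 to 0.030 for S1pr2, -0.048 to 0.064 for Shh, -0.027 to 0.088 for Sphk2, -0.23 to 0.049 for Tafa2, -0.21 to 0.018 for Tafa4, -0.11 to 0.059 for Trpc2 and -0.17 to 0.034 for Trpc6. The cause of these changes was not tested.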
